A study of Rattus norvegicus with 9 samples.

Results

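Integrins and laminins, the receptors and ligands by which cells hold to basement membrane, were followed in RNA of rat dorsal root ganglia (DRG), where the cell bodies of sensory neurons lie among their glia. Members were chosen by name: gene symbols beginning Itga, Itgb, Lama, Lamb or Lamc with the ending of a chain or subunit, and a level of at least 0.5 CPM (counts scaled to a common library size) in at least 3 libraries. Of 30446 genes in the table, 35 symbols had such a name and 34 reached the level: 10 laminin chains, 17 integrin alpha subunits and 7 integrin beta subunits. Lamb3, a chain of an epithelial laminin, missed it with 0.452 ± 0.0749 CPM in SCI, 0.250 ± 0.104 CPM in sham and 0.340 ± 0.0672 CPM in naive libraries. Nearest above the limit, Itga2 averaged 1.27 CPM in SCI, 1.43 CPM in sham and 2.37 CPM in naive libraries. Itgb5, Itgad and Lamb4 were not analysed here. All 34 members passed the low-count filter of the test.

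The tissue came from male Sprague-Dawley rats in 3 groups of 3 libraries: rats with a spinal cord injury (SCI), rats with a sham operation, and naive rats with no operation. All are labelled 30 days, and each library holds ganglia of several lower thoracic and lumbar levels from both sides. The submitters call the libraries biological replicates without saying whether each holds 1 rat or a pool, so the p-values speak of the spread over libraries, which may be technical. No labelled batch separates the groups, and a batch that coincided with a group cannot be told apart from it. Library totals ran from 16724878 to 32060538 counts, which puts about 16.7 to 32.1 counts behind 1 CPM. Means are given with their SD over the 3 libraries of a group. In whole ganglia, fewer cells of a type and less RNA per cell cannot be told apart.

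Laminins are cross-shaped trimers of an alpha, a beta and a gamma chain that polymerise into the basement membrane. Integrins are pairs of an alpha and a beta subunit that span the cell membrane, bind laminins, collagens or fibronectin outside and couple to actin through talin and vinculin inside. In peripheral nerve and ganglia, Schwann cells and satellite glia lie on such membranes, laminin is needed for Schwann cells to sort and myelinate axons, and integrins that bind laminin carry the growth of sensory axons.

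None of the 34 genes passed the test between SCI and sham ganglia (edgeR, with no unadjusted p under 0.05 either). Both operated groups differed from naive ganglia, mostly downward: the laminin chains Lama2, Lamc1, Lamb1, Lama5, Lama4 and Lama3, the main beta subunit Itgb1 and the alpha subunits Itga6 and Itgav were among 15 members lower in both. Itga6, a laminin receptor subunit, was at 159 ± 12.7 CPM in SCI, 145 ± 14.6 CPM in sham and 364 ± 24.3 CPM in naive ganglia. Lama1 alone passed the test as higher in both operated groups. Itgb4 and Lamb2, a receptor subunit and a ligand chain of the same system, did not pass the test in either comparison with naive.

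Of all 16627 genes tested, edgeR's quasi-likelihood test with Benjamini-Hochberg adjustment called 48.5% between SCI and naive at an adjusted p under 0.05, 23.9% higher and 24.6% lower in SCI. Of the 34 members, 16 were called, or 47.1%, with 1 higher (2.94%) and 15 lower (44.1%). Between sham and naive, 50.6% of all genes were called, 24.7% higher and 25.9% lower in sham, and 18 members were called, 2 higher (5.88%) and 16 lower (47.1%). The share of members called was thus close to that of all genes, while their split between directions was uneven. The members' median log2 change was -0.25 for SCI against naive and -0.23 for sham against naive, where all genes had medians of 0.01 and 0.00. All 3 SCI libraries lay above all naive ones in 4 members and below them in 18, where 32.5% and 31.5% of all genes were so apart; all sham libraries lay above naive in 1 member and below in 17, where 27.6% and 29.2% of all genes were. Among the laminins 1 gene was higher and 6 were lower in SCI (median log2 change -0.38), and 2 were higher and 6 lower in sham (median -0.40). Among the 24 integrin subunits none was higher, with 9 lower in SCI and 10 lower in sham. Both comparisons share the naive libraries, so their likeness is no independent support. The same 15 genes were lower in both, while Itga7 and Lamc3 passed in sham only, which is no evidence that SCI and sham differ in them.

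**Figure D1:**
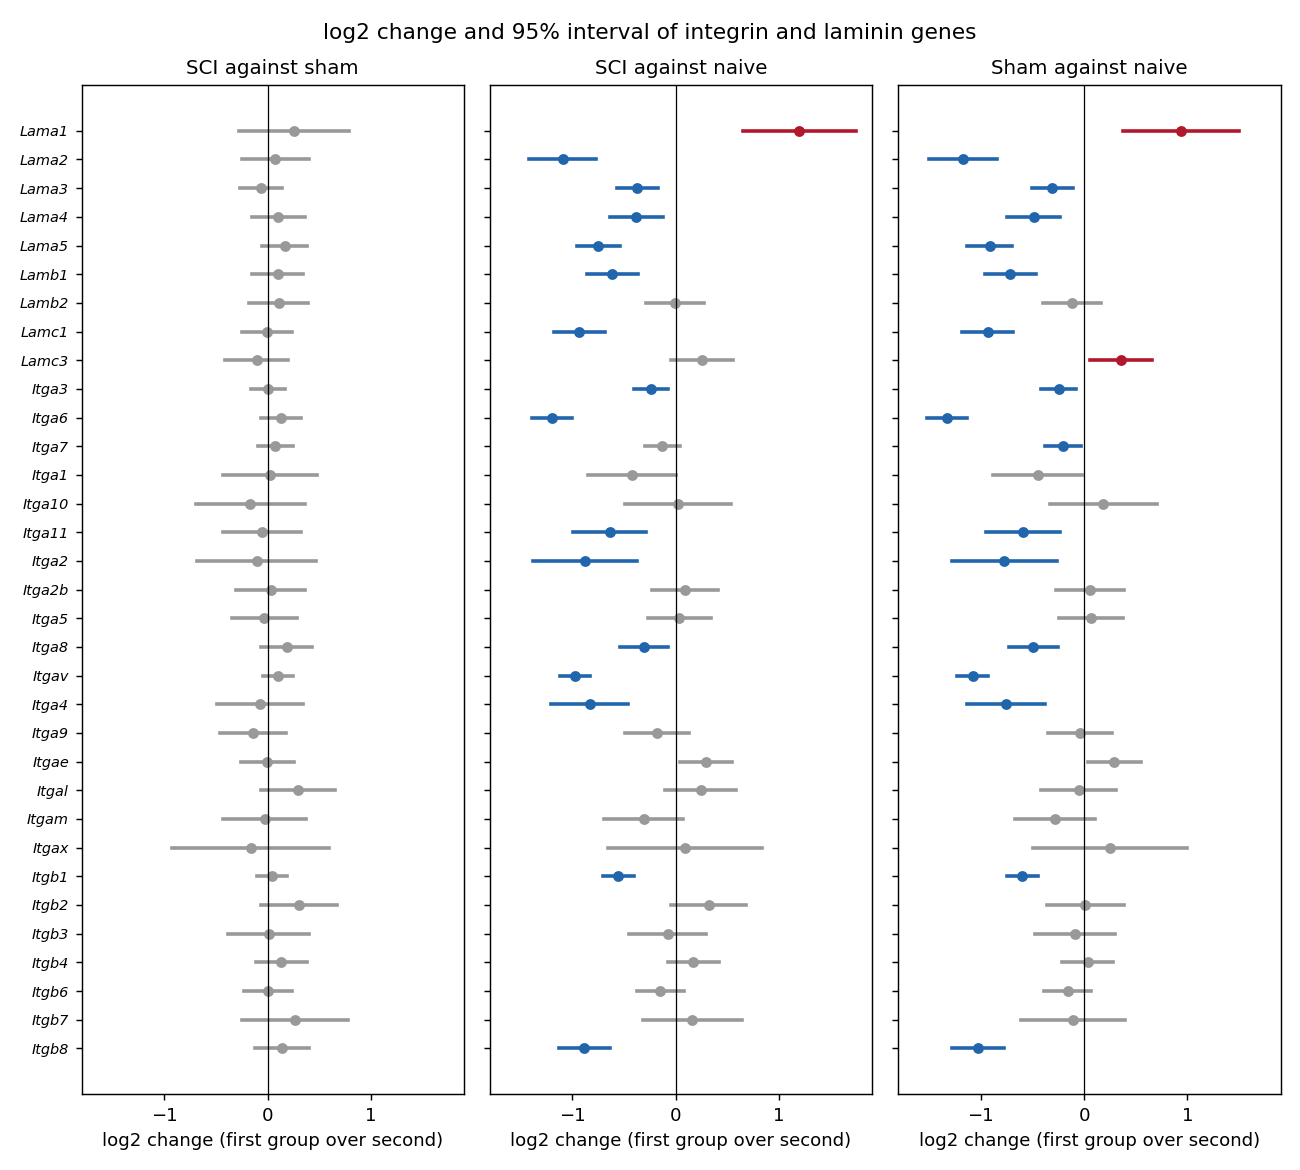
Log2 change (dots) and 95% interval (bars) of members for SCI against sham, SCI against naive and sham against naive, with called genes in blue where lower, in red where higher, and the others in grey. No gene is coloured between SCI and sham; between sham and naive, 16 are blue and 2 are red.

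The laminin alpha chains, which carry the binding sites for cell receptors, were all called in both comparisons with naive, and in opposite directions. Lama2 (ENSRNOG00000011134) encodes the alpha chain of the Schwann cell basement membrane, whose loss in people and mice causes muscular dystrophy with neuropathy. It was at 116, 94.0 and 107 CPM in the SCI libraries, 74.8, 94.5 and 131 CPM in the sham libraries and 227, 215 and 233 CPM in the naive libraries. Every operated library lay below every naive one, and the SCI values lay inside the sham range. The log2 change was -1.10 ± 0.15 (SE; edgeR adjusted p = 6.92e-05) for SCI against naive and -1.17 ± 0.15 (edgeR adjusted p = 3.54e-05) for sham against naive.

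Lama1 (ENSRNOG00000017237), the alpha chain of embryonic basement membranes that persists in the adult around the brain surface, was at 16.4, 17.7 and 13.8 CPM in SCI, 7.49, 13.7 and 19.3 CPM in sham and 5.62, 7.22 and 7.98 CPM in naive libraries. All SCI libraries were above all naive ones, but sham library 1 lay within the naive range. The log2 change was 1.19 ± 0.25 (SE; edgeR adjusted p = 0.00174) in SCI and 0.94 ± 0.26 (edgeR adjusted p = 0.00859) in sham, both against naive. Without sham library 3 the sham value was 0.56, still called.

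Lama5, the most widespread alpha chain of adult vessels and epithelia, was at 26.6, 24.9 and 21.9 CPM in SCI, 19.6, 20.6 and 25.4 CPM in sham and 41.9, 39.6 and 41.8 CPM in naive ganglia. It fell by 0.75 on the log2 scale in SCI (edgeR adjusted p = 4.67e-05) and by 0.91 in sham (edgeR adjusted p = 9.19e-06), with no overlap. Lama4, the alpha chain of capillaries that Schwann cells also make, was at 128, 116 and 108 CPM in SCI, 87.6, 105 and 134 CPM in sham and 153, 148 and 156 CPM in naive ganglia. Its change was smaller than those of Lama2 and Lama5, at -0.38 in SCI (edgeR adjusted p = 0.0173) and -0.49 in sham (edgeR adjusted p = 0.00422). The SCI call for Lama4 was lost without SCI library 2 (-0.37) or SCI library 3 (-0.33). Lama3, an epithelial chain, averaged 11.3 ± 0.255 CPM in SCI, 11.7 ± 1.04 CPM in sham and 14.6 ± 0.832 CPM in naive ganglia, with log2 changes of -0.37 (edgeR adjusted p = 0.00418) and -0.31 (edgeR adjusted p = 0.0123). The sham call was lost without naive library 2 (-0.26) or sham library 2 (-0.24).

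The beta chains went separate ways. Lamb1, the common beta chain, was at 234, 227 and 210.0 CPM in SCI, 172, 197 and 256 CPM in sham and 348, 328 and 348 CPM in naive ganglia, again with every operated library below every naive one. Its log2 change was -0.62 ± 0.11 (SE; edgeR adjusted p = 0.000688) in SCI and -0.71 ± 0.12 (edgeR adjusted p = 0.000205) in sham. Lamb2, the beta chain of synaptic, muscle and kidney basement membranes that Schwann cells also lay down, was at 275, 252 and 254 CPM in SCI, 196, 218 and 309 CPM in sham and 263, 243 and 278 CPM in naive ganglia. The SCI and naive values of Lamb2 overlapped, and its log2 change was -0.01 in SCI (edgeR adjusted p = 0.959) and -0.12 in sham (edgeR adjusted p = 0.479). Without sham library 3, Lamb2 was called lower in sham (-0.33, edgeR adjusted p = 0.00171).

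Lamc1 (ENSRNOG00000002680), the gamma chain of most laminins,  without which no basement membrane forms in the mouse embryo, was at 211, 174 and 175 CPM in SCI, 157, 181 and 223 CPM in sham and 363, 339.8 and 366 CPM in naive ganglia. No operated library reached a naive one. The log2 change was -0.94 ± 0.11 (SE; edgeR adjusted p = 2.78e-05) in SCI and -0.93 ± 0.11 (edgeR adjusted p = 2.38e-05) in sham. Lamc3 was at 8.33, 8.50 and 8.85 CPM in SCI, 7.53, 8.88 and 11.3 CPM in sham and 7.80, 6.49 and 7.24 CPM in naive ganglia. Its log2 change was 0.25 in SCI (edgeR adjusted p = 0.156) and 0.36 in sham (edgeR adjusted p = 0.0486). The sham call was lost in 7 of the 9 fits that left out a library, with a log2 change of 0.19 without sham library 3. It was also lost with a strict filter (0.34), limma-voom (0.33), only the compared groups in the fit (0.36) and the replicate block (0.35).

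**Figure D2:**
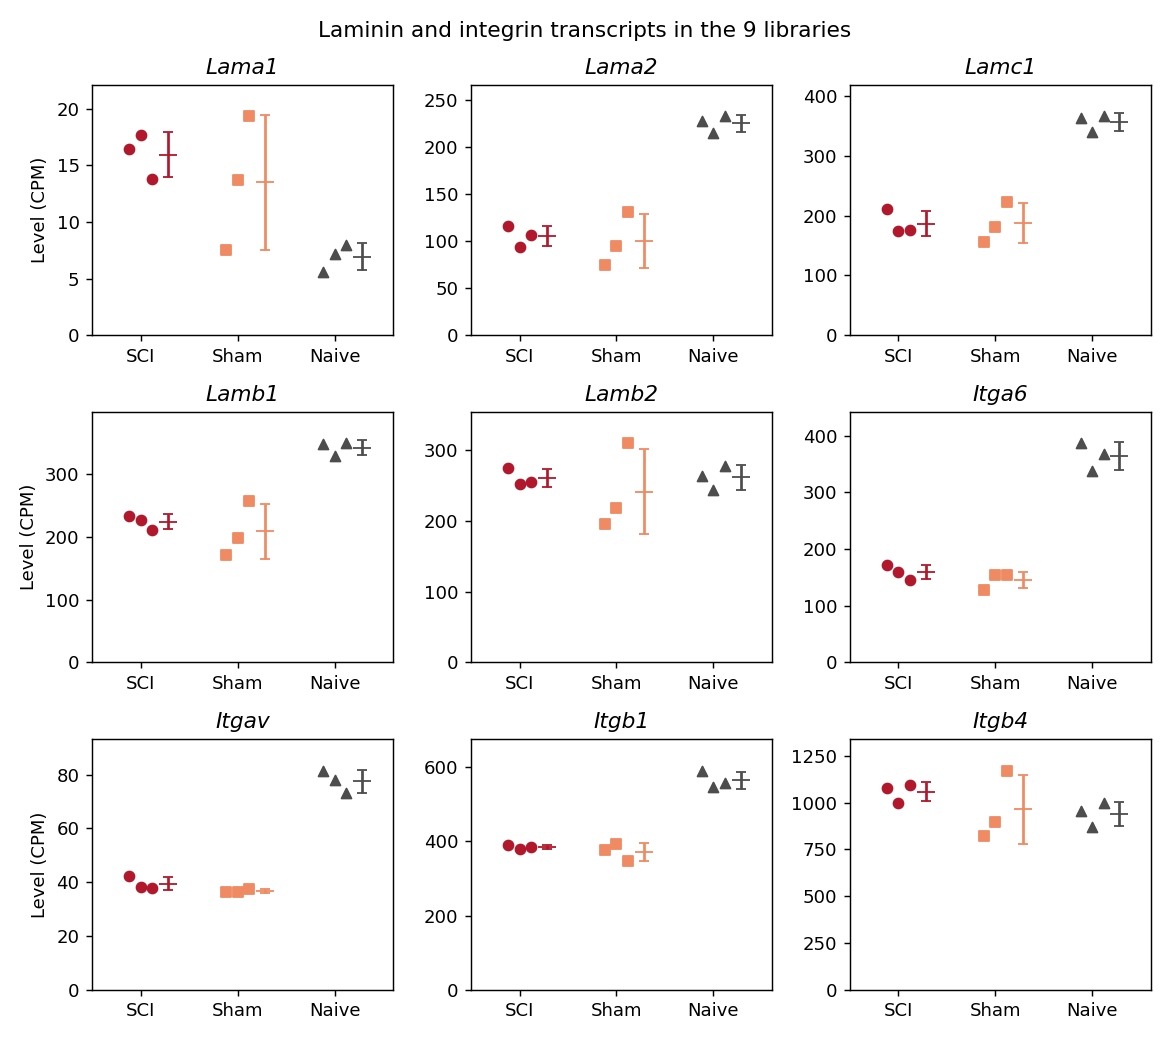
Level in CPM of 9 members in each library of the SCI, sham and naive groups (points), with mean and SD beside them. Lama2, Lamc1, Lamb1, Itga6, Itgav and Itgb1 lie lower in all 6 operated libraries than in naive ones. Lama1 and Itgb4 are higher in all SCI libraries than in naive ones and overlap naive in sham, and Lamb2 overlaps in both.

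The sequence upstream of these genes was read for members that moved in opposite directions. RefSeq promoter windows of assembly GRCr8, from 250 bases before to 50 bases after the gene start, were found for 26 of the 34 members, and Itga6, Itga7, Itgal, Itgb2, Itgb3, Itgb4 and Lamb2 were among those with none. Below is the window of Lama1, the only member called higher in both operated groups, at chr9:115139298-115139597 (plus strand). Those of Lama2 at chr1:19491896-19492195 (plus strand) and Lamc1 at chr13:68051937-68052236 (minus strand), the laminin genes lowered most, follow. The last is that of Itgav at chr3:89245132-89245431 (plus strand), the member with the smallest p among those with a window. Each is written 5′ to 3′ in the direction of the gene, and capitals mark the GC box GGGCGG on either strand.
Lama1: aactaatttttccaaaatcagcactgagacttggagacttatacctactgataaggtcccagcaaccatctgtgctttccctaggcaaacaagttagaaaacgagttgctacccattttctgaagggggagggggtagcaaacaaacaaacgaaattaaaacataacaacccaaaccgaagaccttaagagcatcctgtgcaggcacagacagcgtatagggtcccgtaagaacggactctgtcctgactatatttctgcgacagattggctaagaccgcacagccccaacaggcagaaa
Lama2: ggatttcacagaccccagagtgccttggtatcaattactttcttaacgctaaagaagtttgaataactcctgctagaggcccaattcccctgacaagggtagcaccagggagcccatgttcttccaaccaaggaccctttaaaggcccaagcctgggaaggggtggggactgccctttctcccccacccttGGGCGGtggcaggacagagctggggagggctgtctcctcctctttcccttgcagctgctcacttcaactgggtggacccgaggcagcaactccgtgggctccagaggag
Lamc1: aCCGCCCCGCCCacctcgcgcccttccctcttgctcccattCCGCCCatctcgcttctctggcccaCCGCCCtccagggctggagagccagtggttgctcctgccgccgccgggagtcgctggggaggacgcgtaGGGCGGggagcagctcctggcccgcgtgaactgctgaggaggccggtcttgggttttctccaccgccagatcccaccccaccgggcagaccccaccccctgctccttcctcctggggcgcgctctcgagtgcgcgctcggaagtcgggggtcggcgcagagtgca
Itgav: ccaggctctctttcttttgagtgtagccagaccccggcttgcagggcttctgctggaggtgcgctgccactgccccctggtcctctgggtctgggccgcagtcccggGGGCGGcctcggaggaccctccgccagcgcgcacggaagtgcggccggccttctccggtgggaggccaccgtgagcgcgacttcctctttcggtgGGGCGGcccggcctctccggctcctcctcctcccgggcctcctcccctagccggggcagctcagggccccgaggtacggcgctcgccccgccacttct
The Lama1 window held no GC box and was 45.7% G or C, where Lama2 had 1 box at 57.0%, Lamc1 5 boxes at 71.7% and Itgav 2 boxes at 72.7%. GC boxes stood in 15 of 26 member windows (57.7%) and in 33.1% of all 33469 windows in the RefSeq table, whose median GC content was 51.7%. The CCAAT box, searched as CCAAT on both strands, stood in 5 member windows (19.2%) against 37.5% of all. The TATA box, searched as TATAAA on both strands, stood in 2 member windows (7.69%), those of Lama4 and Itgb7, against 14.2% of all. No matches of different motifs overlapped in the member windows, but the first 2 Lamc1 boxes share a base and are marked as 1 run. Among members without a GC box were both Lama1 and the lowered Lama3, Lama4, Itga4 and Itga8, so the box did not separate the directions. A match is a string in a window and no evidence of binding.

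The laminin-binding alpha subunits are Itga3, Itga6 and Itga7. Itga6 (ENSRNOG00000001518), which pairs with the products of Itgb1 and Itgb4, was at 171, 160.2 and 146 CPM in SCI, 128, 154 and 154 CPM in sham and 386, 338 and 367 CPM in naive libraries. Naive libraries stood well above all operated ones. The log2 change was -1.20 ± 0.09 (SE; edgeR adjusted p = 9.16e-07) in SCI and -1.32 ± 0.09 (edgeR adjusted p = 3.45e-07) in sham.

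Itga7, a laminin receptor of muscle that also rises in rodent neurons after cutting of a peripheral nerve, was at 276, 283 and 256 CPM in SCI, 287, 229.8 and 255 CPM in sham and 294, 300.4 and 296 CPM in naive libraries. Its levels lay below naive by little: the log2 change was -0.13 in SCI (edgeR adjusted p = 0.187) and -0.21 in sham (edgeR adjusted p = 0.0444). The sham call was lost in 8 of the 9 fits that left out a library and with other scalings, and SCI gained a call with only the compared groups in the fit (-0.14, edgeR adjusted p = 0.0167). Itga3, the receptor subunit for epithelial and vessel laminins, was at 68.0, 66.5 and 62.5 CPM in SCI, 73.9, 59.6 and 62.0 CPM in sham and 78.8, 78.7 and 75.0 CPM in naive ganglia. The groups were apart but by little, with log2 changes of -0.24 (edgeR adjusted p = 0.0188) and -0.25 (edgeR adjusted p = 0.0164). The SCI call was lost without naive library 1 or 2 (-0.23 in each) or SCI library 2 (-0.25) or 3 (-0.21), and the sham call without naive library 1 (-0.24) or 2 (-0.23) or sham library 2 (-0.19).

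Among the subunits that bind fibronectin and other ligands with an RGD motif, Itgav (ENSRNOG00000004912) had the smallest p of all members. It encodes the alpha partner of several beta subunits and, with some of them, releases active TGF-beta from its latent complex. Itgav was at 42.2, 38.1 and 37.9 CPM in SCI, 36.2, 36.3 and 37.6 CPM in sham and 81.5, 78.1 and 73.1 CPM in naive libraries. The 3 libraries of each group lay close together and the naive group far above the others. The log2 change was -0.98 ± 0.07 (SE; edgeR adjusted p = 5.2e-07) in SCI and -1.08 ± 0.07 (edgeR adjusted p = 2.09e-07) in sham. Itgb8, its partner in activating TGF-beta, was at 35.1, 26.2 and 24.2 CPM in SCI, 24.2, 28.2 and 25.7 CPM in sham and 53.0, 55.1 and 50.4 CPM in naive ganglia, with log2 changes of -0.89 (edgeR adjusted p = 4.31e-05) and -1.02 (edgeR adjusted p = 1.25e-05).

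Itga8, a receptor subunit of kidney development, averaged 6.43 ± 0.201 CPM in SCI, 5.68 ± 0.566 CPM in sham and 7.94 ± 0.0276 CPM in naive ganglia. It was lower in SCI by -0.31 (edgeR adjusted p = 0.0289) and in sham by -0.49 (edgeR adjusted p = 0.00224). The SCI call was lost with no low-count filter (-0.30) and in 5 of the 9 fits that left out a library. Itga5, the classical fibronectin receptor subunit, overlapped between groups at 13.0 ± 0.623 CPM in SCI, 13.4 ± 3.25 CPM in sham and 12.7 ± 1.05 CPM in naive ganglia. Itga2b, the platelet subunit, averaged 5.28, 5.25 and 4.98 CPM in SCI, sham and naive ganglia and was called in neither comparison.

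Of the 4 collagen-binding subunits, Itga11 and Itga2 were lower. Itga11, found on fibroblasts, was at 6.01, 4.50 and 4.75 CPM in SCI, 5.57, 5.03 and 5.29 CPM in sham and 10.1, 6.56 and 7.40 CPM in naive ganglia, and its log2 change was -0.64 in SCI (edgeR adjusted p = 0.00571) and -0.59 in sham (edgeR adjusted p = 0.00964). Without naive library 1, the highest, the sham call was lost (-0.39). Itga2 averaged 1.27 ± 0.198 CPM in SCI, 1.43 ± 0.560 CPM in sham and 2.37 ± 0.289 CPM in naive ganglia, with log2 changes of -0.88 (edgeR adjusted p = 0.00711) and -0.77 (edgeR adjusted p = 0.0154), and the sham call was lost without naive library 3 (-0.67), sham library 1 (-0.64) or sham library 3 (-0.60). Itga1, a receptor for type IV collagen, was at 3.90 ± 1.13 CPM in SCI, 3.95 ± 0.577 CPM in sham and 5.35 ± 0.902 CPM in naive ganglia. Its log2 changes of -0.43 and -0.45 missed the threshold (edgeR adjusted p = 0.0894 and 0.0781), and without SCI library 1 it was called in both (-0.72 in SCI and -0.45 in sham), and in sham also with no low-count filter (-0.45). Itga10, the cartilage subunit, had log2 changes of 0.02 and 0.19 and was not called.

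Itga4, which binds VCAM1 and fibronectin and is carried by leukocytes and neural crest cells, was at 2.14, 2.03 and 1.41 CPM in SCI, 1.77, 2.25 and 1.98 CPM in sham and 3.48, 3.20 and 3.36 CPM in naive ganglia. All operated libraries lay below all naive ones, with log2 changes of -0.84 (edgeR adjusted p = 0.0014) and -0.76 (edgeR adjusted p = 0.0028). Itga9, the tenascin receptor subunit, had log2 changes of -0.18 and -0.04 and was not called.

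The leukocyte alpha subunits Itgal, Itgam, Itgax and Itgae were called in neither comparison as fitted here. Itgae, which marks lymphocytes that reside in tissue, was at 8.18, 8.94 and 8.30 CPM in SCI, 7.34, 9.05 and 9.10 CPM in sham and 6.31, 7.03 and 7.30 CPM in naive libraries. All operated libraries were above all naive ones, but the log2 change of 0.29 in each comparison missed the threshold (edgeR adjusted p = 0.0553 in SCI and 0.0546 in sham). Itgae lay close to it: both comparisons called it with upper-quartile scaling (0.31 in each), with the replicate block (0.30 in each) and without sham library 1 (0.28 in SCI and 0.39 in sham), SCI also with only the compared groups in the fit (0.28) or without sham library 3 (0.29), and sham also with RLE scaling (0.30). Itgam, the subunit of macrophage and granulocyte complement receptor, averaged 5.64 ± 0.792 CPM in SCI, 5.75 ± 1.15 CPM in sham and 6.95 ± 1.44 CPM in naive ganglia. Summed macrophage markers lay at 173 to 178 CPM in SCI, 138 to 222 CPM in sham and 128 to 147 CPM in naive libraries. Against naive, 4 of these 7 markers were called higher and 1 lower in each operated group. The shares over all genes were 23.9% higher and 24.6% lower in SCI, and 24.7% and 25.9% in sham. Lymphocyte markers summed to 32.9 to 34.8 CPM in SCI, 27.2 to 42.6 CPM in sham and 19.0 to 24.4 CPM in naive libraries. The part of these cells in the subunits' values was not tested.

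Of the 7 beta subunits, Itgb1 and Itgb8 were lower. Itgb1, the partner of most alpha subunits, was at 391, 378 and 386 CPM in SCI, 378, 394 and 346 CPM in sham and 591, 547 and 557 CPM in naive libraries. The groups were wide apart, with log2 changes of -0.56 ± 0.07 (SE; edgeR adjusted p = 3.26e-05) and -0.60 ± 0.07 (edgeR adjusted p = 1.46e-05). Itgb4, which pairs with the Itga6 product alone and in peripheral nerve sits on the outer face of myelinating Schwann cells and in the perineurium, was at 1078, 1001 and 1097 CPM in SCI, 822, 897 and 1172 CPM in sham and 955, 869 and 997 CPM in naive libraries. SCI libraries lay above all naive ones and sham libraries overlapped them, with log2 changes of 0.17 (edgeR adjusted p = 0.248) and 0.04 (edgeR adjusted p = 0.813). Without sham library 3, Itgb4 was called higher in SCI against naive at the same log2 change of 0.17, and likewise with only the compared groups in the fit (0.16). Itgb2, the leukocyte beta subunit, had log2 changes of 0.32 in SCI (edgeR adjusted p = 0.133) and 0.01 in sham (edgeR adjusted p = 0.963), and was called in SCI without SCI library 2 (0.45). Itgb3, Itgb6 and Itgb7 had log2 changes between -0.16 and 0.16 in both comparisons and were not called, except that Itgb6 was called lower in sham without sham library 1 (-0.29, edgeR adjusted p = 0.0212).

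Members thus moved unequally, which ratios of CPM within a library show without regard to library size. The pairs were chosen after their values were seen and are given as descriptions. Since gene length enters each ratio, only its differences between libraries can be read. Itgb4 over Itga6 was 6.29, 6.25 and 7.51 in SCI, 6.40, 5.84 and 7.62 in sham and 2.47, 2.57 and 2.71 in naive libraries, with no overlap between operated and naive. Itga7 over Itga6 averaged 1.71 ± 0.0884 in SCI, 1.80 ± 0.389 in sham and 0.818 ± 0.0650 in naive libraries. Lamb2 over Lamb1 averaged 1.17 ± 0.050 in SCI, 1.15 ± 0.0519 in sham and 0.766 ± 0.0297 in naive libraries. Lama1 over Lama2 averaged 0.153 ± 0.0311 in SCI, 0.131 ± 0.0266 in sham and 0.0308 ± 0.00530 in naive libraries. In each of these ratios the SCI and sham libraries overlapped and both stood above naive.

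**Figure D3:**
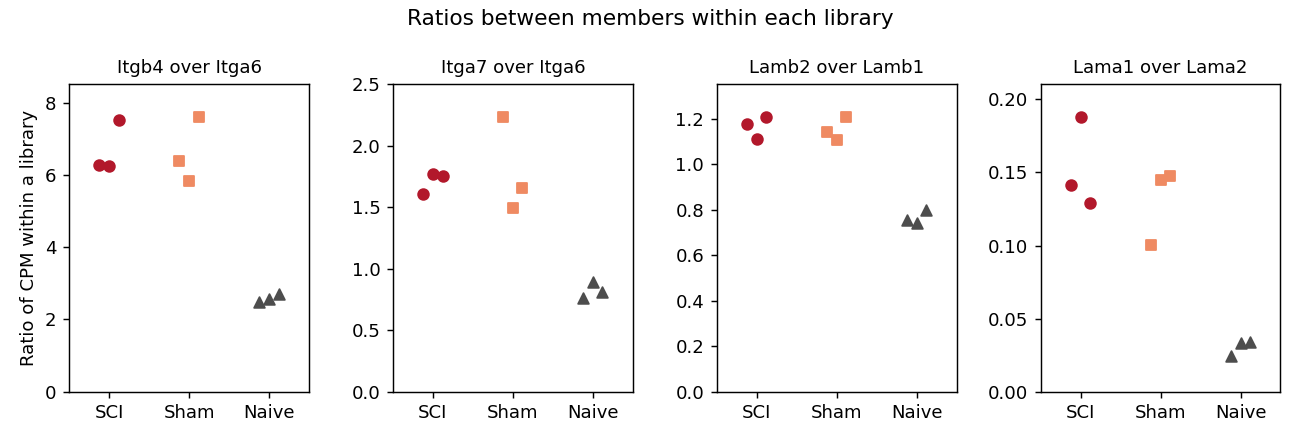
Ratio of CPM between pairs of members within each of the 9 libraries (points) for Itgb4 over Itga6, Itga7 over Itga6, Lamb2 over Lamb1 and Lama1 over Lama2, in SCI, sham and naive groups. Every operated library lies above every naive one, and SCI and sham points mix.

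Between SCI and sham, 0 of 16627 genes (0%) and 0 of 34 members were called by edgeR, and no member had an unadjusted p under 0.05, against 526 of all genes. DESeq2 called 9 genes and limma-voom 0, in each case 0 members. The log2 changes of members ran from -0.17 to 0.30 with a median of 0.03. The 5 with the smallest p were Itgal (log2 change 0.30), Itgb2 (0.30), Itga8 (0.18), Lama5 (0.17) and Itgav (0.10), each with an edgeR adjusted p of 0.9999. Itgal, which with Itgb2 forms a receptor of lymphocytes, was at 4.80, 4.35 and 5.93 CPM in SCI libraries against 3.47, 4.32 and 4.55 CPM in sham libraries, which overlap. Only Itgav had SCI libraries all above sham libraries, and in none were they all below, where 3.57% and 2.86% of all genes were apart in those directions.

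The intervals show which differences between SCI and sham these libraries could hide. The 95% interval of the log2 change ran from -0.11 to 0.19 for Itgb1, from -0.06 to 0.32 for Itga6, from -0.25 to 0.24 for Lamc1, from -0.25 to 0.40 for Lama2, from -0.12 to 0.38 for Itgb4 and from -0.28 to 0.79 for Lama1. A Lama1 difference of the size seen against naive thus lay above its interval, while differences inside it remained compatible with these libraries. The intervals of Itgax, from -0.92 to 0.60, and of Itga2, from -0.68 to 0.46, were wider than that of Lama1. All intervals hold for each gene singly and are no limit of detection. Without sham library 3, 8 members had an unadjusted p under 0.05 and the median was 0.11, with 0 members called, while 2329 of 16849 genes tested had such a p and 22 were called; without sham library 1 the median was -0.03.

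On the median over members, sham libraries varied more than the others, and laminins did so together. The median coefficient of variation over members was 10.1% in SCI, 16.8% in sham and 6.70% in naive groups. Over laminins it was 9.12%, 20.7% and 4.09%. Over integrins it was nearly equal in SCI and sham, at 13.8% and 14.2%, with 7.3% in naive. Several integrins varied more in SCI than in sham, among them Itga1, Itga4, Itgav and Itgb8. Sham library 3 was the highest of its group for 8 of 10 laminins and sham library 1 the lowest for 8 of 10. Summed laminin levels were 1030, 929 and 914 CPM in SCI, 738, 854 and 1125 CPM in sham and 1429, 1347 and 1457 CPM in naive libraries. Fibroblast markers (Pdgfra, Dcn, Lum, Col1a1, Col1a2 and Dpt) had the same order within sham, with sums of 1392, 1912 and 2406 CPM, while neuron markers ran the other way, with 24890, 19822 and 17439 CPM. The part of cell composition in the laminin values was not tested.

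**Figure D4:**
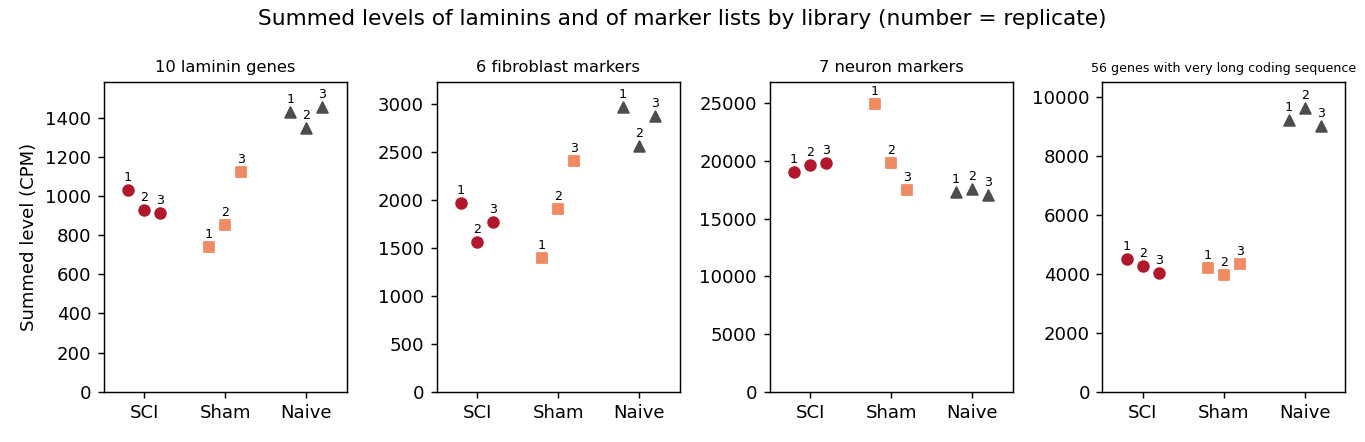
Summed level in CPM of the 10 laminins, 6 fibroblast markers, 7 neuron markers and 56 genes with very long coding sequence in each library of the SCI, sham and naive groups, with replicate numbers at the points. Laminins and fibroblast markers are highest in sham library 3 and lowest in sham library 1 within that group, and the long genes are lower in all operated libraries than in naive ones.

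Some marker lists moved with the members between operated and naive ganglia, and others did not. Of all genes, 23.9% were higher and 24.6% lower in SCI, and 24.7% and 25.9% in sham. Satellite glia markers had 3 of 6 higher and 1 lower in each operated group. Their sums averaged 2339 CPM in SCI, 1908 CPM in sham and 1631 CPM in naive libraries. Pericyte and smooth muscle markers had 2 of 6 higher and 1 lower in SCI, and 4 higher and 1 lower in sham. Myelinating Schwann cell markers summed to 19132 to 23288 CPM in SCI, 17757 to 21930 CPM in sham and 30077 to 31804 CPM in naive libraries, with 6 of 7 called lower in each operated group (median log2 change -0.69 in SCI and -0.75 in sham). Fibroblast markers had 3 of 6 lower in each. Of 4 endothelial markers tested, Kdr and Vwf were lower in each. Cdh5 (log2 change 0.16 in SCI and 0.18 in sham) and Tek (0.03 and -0.11) were not called. Neuron markers summed to 19056 to 19783 CPM in SCI and 17439 to 24890 CPM in sham against 17039 to 17546 CPM in naive libraries, and every neuron marker was present. Of these 7 markers, 3 were called higher and 1 lower in each operated group. Of 56 listed genes known for very long coding sequences, drawn up with earlier results known, 55 were lower in SCI (median -1.10) and 54 in sham (median -1.16) against naive, and 0 were called between SCI and sham. Laminin alpha chains are themselves among the long proteins of the body. The part of transcript length or of any cell type in the members' values was not tested.

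Further lists held molecules around the receptors. Of 14 other basement membrane genes tested, 1 was higher (7.14%) and 7 lower (50%) in SCI, and 1 higher (7.14%) and 8 lower (57.1%) in sham, against naive, beside 23.9% higher and 24.6% lower of all genes in SCI and 24.7% and 25.9% in sham. Col4a1, a chain of type IV collagen, averaged 279 ± 12.1 CPM in SCI, 272 ± 37.1 CPM in sham and 413 ± 3.41 CPM in naive ganglia, with log2 changes of -0.57 (edgeR adjusted p = 0.000168) and -0.60 (edgeR adjusted p = 8.81e-05). Nid1, which links laminin to type IV collagen, fell by 0.73 in SCI and by 0.70 in sham, and Col4a2 fell by 0.43 in SCI. Agrn, the heparan sulphate proteoglycan that binds the laminin gamma chain, was at 94.6, 92.9 and 83.5 CPM in SCI, 75.3, 67.9 and 82.4 CPM in sham and 106, 115 and 116 CPM in naive libraries, and fell by 0.58 in sham against naive (edgeR adjusted p = 5.72e-05). It had the smallest p of this list between SCI and sham, where SCI libraries were all higher (log2 change 0.26, edgeR adjusted p = 0.9999).

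Of 19 other laminin receptors and integrin partners, 3 were higher (15.8%) and 7 lower (36.8%) in SCI and 4 higher (21.1%) and 7 lower (36.8%) in sham, beside 23.9% and 24.6% of all genes in SCI and 24.7% and 25.9% in sham. Those with the smallest p belong to the dystrophin complex, which links laminin to actin: Dmd averaged 126 ± 4.78 CPM in SCI, 121 ± 15.1 CPM in sham and 206 ± 1.74 CPM in naive ganglia, and fell by 0.71 and 0.77. Utrn, its homologue in Schwann cells, fell by 0.68 in SCI and by 0.71 in sham, and Sgcb by 0.52 and 0.53.

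Of 30 integrin adaptors and signal proteins, 7 were higher (23.3%) and 10 lower (33.3%) in SCI, and 10 higher (33.3%) and 10 lower (33.3%) in sham. Of all genes, 23.9% were higher and 24.6% lower in SCI and 24.7% and 25.9% in sham. Vcl, encoding vinculin, averaged 118 ± 1.5 CPM in SCI, 105 ± 5.85 CPM in sham and 188 ± 4.24 CPM in naive ganglia and fell by 0.67 in SCI (edgeR adjusted p = 2.85e-06) and by 0.83 in sham (edgeR adjusted p = 5.73e-07). Tln1, encoding talin, fell by 0.61 and 0.63. Sharpin, which holds integrins inactive, rose by 0.47 and 0.49, at 71.6 ± 2.98 CPM in SCI, 72.4 ± 2.86 CPM in sham and 51.6 ± 1.13 CPM in naive ganglia. Between SCI and sham the smallest p in this list was that of Vcl (log2 change 0.17, edgeR adjusted p = 0.9999).

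Of 20 genes listed as other integrin ligands, 5 were higher (25%) and 7 lower (35%) in SCI, and 4 higher (20%) and 7 lower (35%) in sham. Their share of higher genes was close to that of all genes, at 23.9% in SCI and 24.7% in sham, and 24.6% and 25.9% of all genes were lower. Tgfb2 encodes an isoform of TGF-beta, and whether its latent protein binds integrins was not examined here. Tgfb2 averaged 14.1 ± 1.16 CPM in SCI, 14.4 ± 0.682 CPM in sham and 23.2 ± 0.287 CPM in naive ganglia, and fell by 0.72 in SCI (edgeR adjusted p = 1.38e-05) and by 0.69 in sham (edgeR adjusted p = 1.74e-05). Col1a1, a fibrillar collagen chain, fell by 0.98 in SCI and by 0.91 in sham, and Thbs2, a thrombospondin, by 0.98 and 0.99. Tgfb3, an isoform whose latent protein is an integrin ligand, had the smallest p between SCI and sham, at 27.6, 29.4 and 26.5 CPM in SCI against 30.1, 32.7 and 34.4 CPM in sham (log2 change -0.22, edgeR adjusted p = 0.9999).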

How the data were processed

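Per the labels' protocols, RNA came from RNeasy Mini Kit columns and went into paired-end TruSeq (V2) libraries, whose kit does not mark strand. The submitters' processing notes name FastQC and Trimmomatic, TopHat2, HTSeq, and DESeq2. Their versions, with build and annotation, were not given in the sources used here. Raw counts, whole numbers of reads for each of 30446 genes, were deposited by the authors, and every count column entered.

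Groups came from the treatment labels. CPM and fold changes were computed here from TMM-scaled library sizes. Changes were tested with edgeR 4.0.16 (R 4.3.3): the default low-count filter by group left 16627 genes, and all 9 libraries entered 1 quasi-likelihood fit with 6 residual degrees of freedom and a common biological coefficient of variation of 0.0805. Calls were made at a Benjamini-Hochberg adjusted p under 0.05 over all genes tested. Intervals are 95% intervals of that fit. The test was also run on simulated counts with changes set in the SCI libraries alone. Its outcome there is not reported here and is no support for the calls. As alternatives, scaling was by RLE or upper quartile, the filter was dropped or made strict (at least 1 CPM in all 9 libraries), DESeq2 1.42.0 or limma-voom 3.58.1 took the place of edgeR, and the fit held the compared groups alone or a replicate block. Also tried were an adjusted p under 0.1 and each library left out in turn.

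The members, gene lists and tests were chosen with earlier results of these data known. Named members were up to 10 called in each direction with the smallest p, the 2 with the highest mean level in each role group and, for SCI against sham, the 5 with the smallest p; most remaining members were given as well. From each list of partner genes, up to 3 with the smallest p were named. Some genes that these rules take are not reported here. No table of protein or transcript lengths was used, so levels per length, shares of laminin chains and classes of protein length, which had been planned, were not computed, and levels are not compared between genes.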

Additional observations from a re-analysis of the deposited data

How the results depend on the processing

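Counts of called members stayed within 1.5 times of the reported ones: 0 for SCI against sham in all 18 other settings, 13 to 19 for SCI against naive and 14 to 20 for sham against naive. Leaving out each library gave 0, 13 to 18 and 14 to 19, and the smallest numbers of calls shared with the reported ones over all settings were 13 and 14. Calls held in every setting for 13 of 16 members in SCI against naive (not Itga3, Itga8 and Lama4) and for 12 of 18 in sham against naive (not Itga11, Itga2, Itga3, Itga7, Lama3 and Lamc3). The 34 members did not change with a minimum of 1 CPM or raw CPM. Replicate numbers are shared by all groups, but libraries with the same number did not deviate together (r from -0.0946 to 0.124). With the replicate block, 0, 17 and 17 members were called for SCI against sham, SCI against naive and sham against naive.

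For SCI against sham, only 24 of the 34 members were followed through the settings, so the lists of sign changes say nothing of the rest. Every change of sign was in a value that was not called. For SCI against sham, these were Itga1 with DESeq2 (-0.000792) and the block (-0.00294), Itga5 with limma-voom (0.0149), Itgae with no filter (0.00197), a strict filter (0.000478), limma-voom (0.0108) and the block (0.00207), and Lamc1 with the block (0.000704). For SCI against naive it was Lamb2 with upper-quartile scaling (0.00763), and for sham against naive Itgb2 with a strict filter (-0.00530) and limma-voom (-0.00687). The cause was not tested.

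Among the values followed, leaving out a library turned the sign of the following log2 changes, given with their lowest and highest values. For SCI against sham they were Itga1 (-0.27 to 0.16), Itga11 (-0.20 to 0.0216), Itga4 (-0.21 to 0.0767), Itga5 (-0.21 to 0.17), Itga7 (-0.000819 to 0.15), Itgae (-0.11 to 0.0538), Itgam (-0.20 to 0.11), Itgb1 (-0.0101 to 0.0858), Itgb8 (-0.0468 to 0.24), Lama1 (-0.0651 to 0.63), Lama2 (-0.10 to 0.32), Lama4 (-0.0364 to 0.28), Lamb1 (-0.0295 to 0.27), Lamb2 (-0.0268 to 0.33), Lamc1 (-0.12 to 0.14) and Lamc3 (-0.25 to 0.066). For SCI against naive they were Itga10 (-0.14 to 0.19), Itga5 (-0.0279 to 0.0787), Itgax (-0.23 to 0.59), Itgb3 (-0.29 to 0.0619) and Lamb2 (-0.0572 to 0.029). For sham against naive they were Itga2b (-0.0493 to 0.22), Itga5 (-0.13 to 0.24), Itga9 (-0.0946 to 0.0357), Itgal (-0.14 to 0.0664), Itgax (-0.0242 to 0.75), Itgb2 (-0.12 to 0.16), Itgb3 (-0.20 to 0.0598), Itgb4 (-0.12 to 0.13), Itgb7 (-0.26 to 0.18) and Lamb2 (-0.33 to 0.00813).

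Depth limits the genes near 1 CPM, such as Itga2, Itga4, Itga10 and Itgax, most. With 3 libraries a group, small differences between SCI and sham cannot be seen. Sham varied more than SCI on the median over members, though by little over the integrins and not in every gene.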
